A study of Homo sapiens with 8 samples.

Results

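BCR, ABL1 and 7 genes that act below their fusion kinase (CRKL, GRB2, GAB2, SOS1, STAT5A, STAT5B and PIM1) were followed through the splice junctions of K562 cells. These 9 genes were taken by name, and a junction belonged to one of them when GENCODE release 29 gave it an intron, donor or acceptor of that gene alone. They accounted for 646 of the 860791 junctions read in the 8 libraries, and for 9 of the 20720 genes with spliced reads. K562 is an established human line from a chronic myeloid leukaemia in blast crisis. Total RNA was sequenced from K562 cells labelled SF3B1 K700E and from K562 cells labelled SF3B1 wild type (WT), at day 4 and at day 8, with 2 libraries in each group. The labels give doxycycline at 1 µg/ml to induce the modified allele for every sample. Whether each line was a single clone is not given in the sources used here. Replicates are not said to come from separate cultures, so p-values measure only the spread between these libraries, which may be technical. The question posed by the design was what differs in expression and splicing between K700E and WT cells.

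In chronic myeloid leukaemia a translocation joins the 5′ part of BCR on chromosome 22 to ABL1 on chromosome 9, and the product is a constitutively active tyrosine kinase. The fusion protein recruits GRB2, which brings the exchange factor SOS1 to RAS and the docking protein GAB2 to the PI3K and ERK pathways. It phosphorylates the adaptor CRKL and, directly or through other kinases, the transcription factors STAT5A and STAT5B, of which the survival kinase gene PIM1 is a target. SF3B1 belongs to the U2 snRNP, which recognises the branch point, and K700E cells are known to use cryptic acceptors (3′ splice sites) a short way upstream of the normal ones.

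On hg38 BCR spans chr22:23179704-23318037 and ABL1 chr9:130713946-130887675, both on the plus strand, with 22 and 10 introns in their main transcripts. The adaptors are CRKL (chr22:20917426-20953749, plus strand, 2 introns), GRB2 (chr17:75318076-75405709, minus strand, 5 introns), GAB2 (chr11:78215297-78418348, minus strand, 9 introns) and SOS1 (chr2:38981396-39124345, minus strand, 23 introns). STAT5A (chr17:42287547-42311943, plus strand, 19 introns) and STAT5B (chr17:42199168-42276707, minus strand, 18 introns) lie head to head, and PIM1 spans chr6:37170203-37175426 on the plus strand with 5 introns.

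K562 cells carry the fusion in the form known as e14a2, in which BCR exon 14 is joined to ABL1 exon 2. The exon ends that meet in it, and those they are separated from, are shown because every comparison along the 2 genes turns on them. They are from GENCODE release 29 transcripts on hg38, 5′ to 3′, with the 12 bases nearest the splice in capitals, and all lie in coding sequence.
End of BCR exon 14 (chr22:23290390-23290413, plus strand): ccactggatttaAGCAGAGTTCAA
Start of ABL1 exon 2 (chr9:130854064-130854087, plus strand): AAGCCCTTCAGCggccagtagcat
Start of BCR exon 15 (chr22:23292541-23292564, plus strand): ATCTGTACTGCAccctggaggtgg
End of ABL1 exon 1b (chr9:130714432-130714455, plus strand): actgcaatgtttTTGTGGAACATG
End of ABL1 exon 1a (chr9:130835502-130835525, plus strand): cgtcctccagctGTTATCTGGAAG
Reads across the joined pair itself (the first and second lines) were not analysed here, since the tables list ordinary junctions within a chromosome only. In their place, introns 1 to 13 of BCR count the normal and the fused transcript, and introns 14 to 22 count normal BCR alone. In ABL1 the introns that join exon 1a or 1b to exon 2 count normal ABL1 alone, and introns 2 to 10 count both.

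The libraries held 49338071 to 77750812 unique junction reads. Near-upstream acceptors of 13 known K700E targets, taken as a check of the labels, had a median use of 34.5% and 31.7% in the K700E libraries and 1.23% and 1.90% in the WT libraries at day 4. At day 8 the median was 2.21% and 39.0% in the libraries labelled K700E and 0% and 42.9% in those labelled WT, so replicate 1 of K700E and replicate 2 of WT went against their labels. Of the 13, the acceptors of TMEM14C and SEPTIN6 were hardly used in any library (at most 0.0522% and 0.553%), so they do not inform on the labels. The day 8 groups are given under their labels, with each library's value. Per the file headers the day 4 libraries were aligned in May, the K700E day 8 libraries in March and the WT day 8 libraries in February, so genotype label and alignment run cannot be told apart at day 8, nor day and run. Unannotated junctions with a single read made up 3.84% and 5.49% of unannotated junctions in WT at day 8, while the remaining 6 libraries had 25.9% to 37.9%. The labels call the cells epithelial, but the erythroid regulator GATA1 stood at 122 to 213 CPM in the 8 libraries (CPM, unique junction reads scaled to library size with TMM factors, the trimmed mean of M values, over all 8 libraries), while CDH1 and CLDN4, of the 7 epithelial genes listed, had at most 0.0419. The other epithelial genes were read: EPCAM stood at 74.3 to 111 CPM at day 4 and 6.90 to 32.2 at day 8, KRT8 at 164 to 1029, KRT18 at 216 to 1192 and KRT19 at 32.9 to 361 over the 8 libraries, and ELF3 at 0.0165 to 16.1. The epithelial list summed to 688 and 487 CPM in K700E and 868 and 986 in WT at day 4. Of its 5 genes tested, 4 were lower and none higher in K700E at an unadjusted p under 0.05. Of all genes tested, 11.1% were lower and 10.3% higher at that level. At day 8 the epithelial list summed to 1225 and 2608 in the libraries labelled K700E and 1019 and 1095 in those labelled WT. The 7 megakaryocyte genes listed summed to 126 and 124 CPM in K700E and 12.6 and 23.9 in WT at day 4. All 3 that were tested were higher in K700E at an unadjusted p under 0.05. Of them 1 was called by edgeR (adjusted p 0.0437), against 0.543% of all genes. At day 8 the megakaryocyte list summed to 39.5 and 516 in the libraries labelled K700E and 96.1 and 79.4 in those labelled WT. The part of either list in the results was not tested.

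Reads along BCR were fewer behind the fusion point than ahead of it in every library. Introns 1 to 13 averaged 15.2 and 18.4 CPM in the K700E libraries at day 4, and 14.1 and 14.4 in the WT libraries. Introns 14 to 22 averaged 2.93 and 3.95 CPM in the K700E libraries and 2.59 and 2.73 in the WT libraries. The part behind the fusion point was thus read at 19.3% and 21.5% of the level ahead of it in K700E cells, against 18.4% and 18.9% in WT cells. At day 8 these shares were 17.1% and 19.5% in the libraries labelled K700E and 16.4% and 20.1% in those labelled WT.

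The step at the fusion point, between introns 13 and 14, went from a mean of 10.8 to 5.17 CPM over the 8 libraries. Coverage was uneven on both sides of it. Ahead of it the mean also fell from 31.5 CPM at intron 7 to 16.5 at intron 8, and from 18.5 at intron 12 to 10.8 at intron 13. On average the fall into intron 13 was no smaller in CPM than that at the fusion point. Intron 7 held the most reads in BCR on average, and intron 21 the fewest, at 2.35 CPM. Introns 1 and 2 stood at 0.376 and 0.341 of introns 6 and 7 in the K700E libraries and at 0.363 and 0.33 in the WT libraries at day 4. The same ratio at day 8 was 0.720 and 0.665 in the libraries labelled K700E and 0.579 and 0.645 in those labelled WT. Over 22 introns or more, the log2 ratio of introns 1 to 13 over the later ones averaged 2.41 for BCR, higher than in 1113 of the 1125 genes compared, whose median was 0.03.

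**Figure D1:**
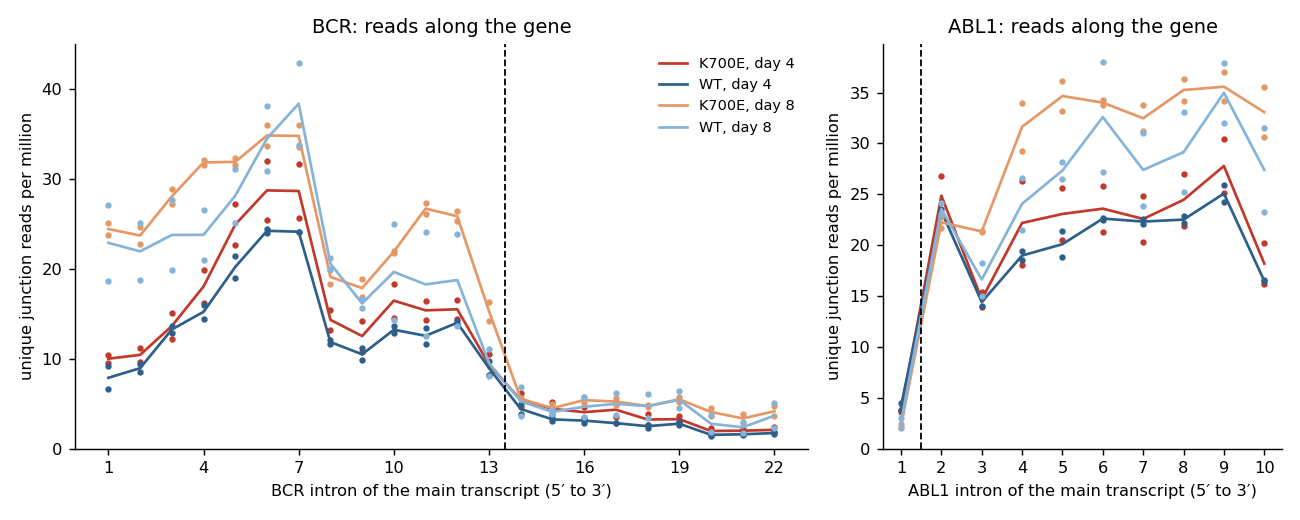
Unique junction reads in CPM (y axis) at each intron of the main transcript of BCR (left) and ABL1 (right), counted 5′ to 3′ (x axis). Lines are group means, points are the libraries, and the dashed line marks the fusion point. BCR drops from a mean of 18.5 CPM at intron 12 to 10.8 at intron 13, and to 5.17 at intron 14 behind the fusion point. ABL1 stands at 3.17 in intron 1 and 23.5 in intron 2.

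ABL1 showed the opposite step, from few reads at its first intron to many behind it. The introns that join exon 1a or 1b to exon 2 carried 4.03 and 3.92 CPM in the K700E libraries at day 4, and 5.12 and 5.39 in the WT libraries. Introns 2 to 10 averaged 20.03 and 24.7 CPM in the K700E libraries and 20.8 and 20.5 in the WT libraries. The level behind the fusion point was 4.97 and 6.31 times that ahead of it in K700E cells, against 4.05 and 3.81 times in WT cells. At day 8 the ratio was 9.07 and 11.2 in the libraries labelled K700E and 5.29 and 11.3 in those labelled WT, where replicate 1 was the low one. The mean log2 ratio of 2.69 was higher than in 3911 of 4433 genes with 10 introns or more (median 1.01), a less extreme place than that of BCR among genes of its kind.

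The 2 steps were compared between K700E and WT by an exact permutation test over libraries, which cannot give a p below 0.33 with 2 libraries against 2. The log2 ratio of ABL1 was 2.49 ± 0.24 in K700E and 1.98 ± 0.06 in WT at day 4 (SD, n = 2 each), a difference of 0.51 with no overlap and an exact two-sided permutation p of 0.33. For BCR the log2 ratio was 2.30 ± 0.11 in K700E and 2.42 ± 0.03 in WT (SD, n = 2 each), a difference of -0.13 (exact permutation p 0.33). The groups overlapped for both genes at day 8, where the difference was 0.38 for ABL1 and -0.01 for BCR, each with an exact permutation p of 1.00. The ABL1 log2 ratio averaged 3.14 over the 4 libraries of day 8 and 2.23 over those of day 4 (exact permutation p 0.0571, n = 4 each, ranges overlapping).

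**Figure D2:**
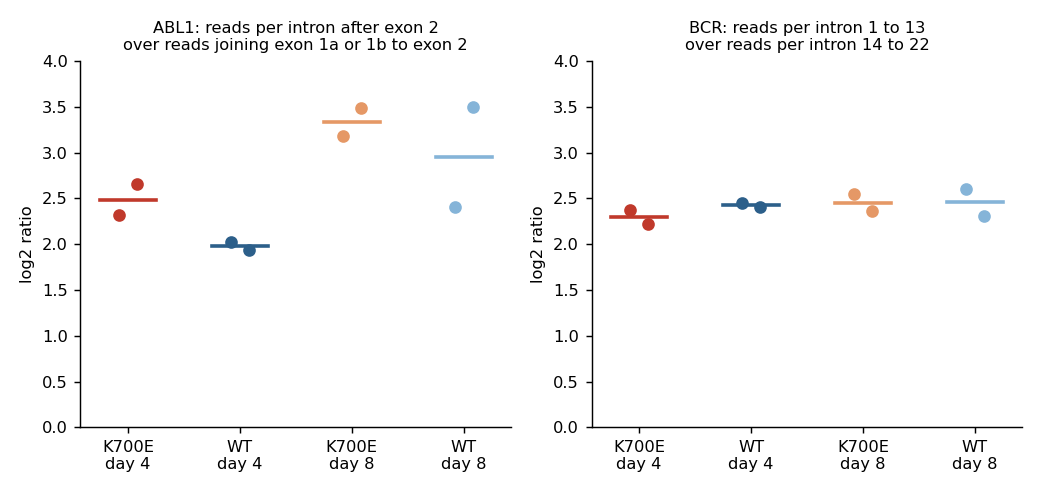
Log2 ratio (y axis) of reads per intron on the fused side of the fusion point over the other side, for ABL1 (left) and BCR (right), in each group (x axis). Points are libraries and bars are group means. The ABL1 values are 2.31 and 2.66 for K700E and 2.02 and 1.93 for WT at day 4, while the BCR values lie between 2.22 and 2.60 in all libraries.

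The fused side can also be read as a difference, since both sides share the normal transcript. The excess of BCR introns 1 to 13 over introns 14 to 22 was 12.2 and 14.5 CPM in the K700E libraries and 11.5 and 11.7 in the WT libraries at day 4. The excess of ABL1 introns 2 to 10 over the joins into exon 2 was 16.0 and 20.8 in K700E and 15.6 and 15.2 in WT. At day 8 the BCR excess was 21.3 and 21.0 in the libraries labelled K700E and 16.2 and 20.9 in those labelled WT, and the ABL1 excess was 28.4 and 27.6 against 19.6 and 27.2. In both genes WT replicate 1 stood lowest of the day 8 libraries. WT replicate 2 of day 8 stood close to both libraries labelled K700E. Those 2 differed in their median use of the known target acceptors (2.21% and 39.0%).

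ABL1 has a pair of alternative first exons, 1a and 1b, with promoters of their own. Exon 1b was the more used in every library. Exon 1a gave 18 and 21 reads into exon 2 in the K700E libraries at day 4, against 67 and 54 in the WT libraries. Its share among all junctions into exon 2 was 6.85% ± 2.00 in K700E and 19.1% ± 5.85 in WT (SD, n = 2 each), and the libraries did not overlap. The edgeR test of donor choice gave a log2 change of -1.48 (p 0.00338, adjusted p 0.327 over 64625 junctions), so the difference did not pass; 0.0232% of donor junctions were called in this comparison, and 5.55% had an unadjusted p under 0.05. At day 8 exon 1a gave 50 and 41 reads in the libraries labelled K700E and 111 and 32 in those labelled WT, and the shares overlapped (24.3% ± 3.04 and 25.6% ± 10.4). Beside these, 8 unannotated junctions into exon 2 carried 17 to 39 reads per library at day 4. At day 8 they carried 21 and 18 reads in the libraries labelled K700E and 8 and 10 in those labelled WT. Those WT libraries listed 50433 and 95207 unannotated junctions over all genes, and the remaining libraries 166536 to 244542. The part of this in the counts was not tested.

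All listed junctions into exon 2 came to 19.9% and 15.7% of the reads that left it through intron 2 in the K700E libraries at day 4, and to 23.2% and 25.3% in the WT libraries. At day 8 they came to 18.2% and 13.1% in the libraries labelled K700E and to 20.3% and 11.6% in those labelled WT.

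A 35-nt exon absent from GENCODE release 29 was read within ABL1 intron 8 (chr9:130879718-130879752, plus strand), between exons 8 and 9 in the kinase domain. An insertion of this length at this place is known from ABL1 transcripts of patients with chronic myeloid leukaemia. It was chosen after its values were seen. Reads entering it numbered 28 and 26 in the K700E libraries and 41 and 26 in the WT libraries at day 4, which is 1.74% and 1.56% of reads against 3.37% and 1.81%. At day 8 it took 0.630% and 0.706% of reads in the libraries labelled K700E, against 0.927% and 1.43% in those labelled WT. Reads leaving it were found in every library as well, from 6 to 27. Its use did not pass the test of acceptor choice at day 4 (log2 change -0.65, p 0.227, adjusted p 1.00 by edgeR).

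One member changed in splicing at day 4. SOS1, the RAS exchange factor, used an unannotated acceptor 23 nt upstream of exon 4 in the K700E libraries (intron chr2:39058828-39067627, minus strand, intron 3). The exons on either side are coding and are shown as above, with the 12 bases nearest the splice in capitals, from GENCODE release 29 on hg38.
End of SOS1 exon 3 (chr2:39067628-39067651, minus strand): ccccgaagtgctTCAGATGTAGAG
Start of SOS1 exon 4 (chr2:39058781-39058804, minus strand): GAACGTGTTCAAaaaagtttccct
The upstream acceptor had 37 and 23 reads in the K700E libraries, against 1 and 0 in the WT libraries. Of the reads at it and at the annotated acceptor, that is 10.3% (exact 95% interval 7.34% to 13.9%) and 6.17% (3.95% to 9.11%) in K700E. In WT it is 0.265% (0.00670% to 1.47%) and 0 of 406 reads (exact upper limit 0.904%). These intervals are Clopper-Pearson and cover counting error only. By the rule that a count of 0 allows up to 3 reads, the limit for the last library is 0.739%. By edgeR's test of acceptor choice the use rose by 5.69 on the log2 scale, or 7.85 percentage points of all reads from that donor (adjusted p 0.00670 over 69838 junctions, of which 0.454% were called and 6.97% had an unadjusted p under 0.05). The fitted fold depends on a WT group of a single read and is no measure of size. The adjusted p was 0.179 with limma, 1.00 with all 8 libraries in 1 model, 0.218 without WT replicate 1 and 0.451 without WT replicate 2, so the call needs both WT libraries.

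At day 8 the SOS1 acceptor was used in one library of each label. It had 0 and 8 reads in the libraries labelled K700E (0% and 4.65%) and 0 and 11 in those labelled WT (0% and 8.27%), and the difference did not pass (adjusted p 1.00 by edgeR). The libraries with reads were the same that used the known target acceptors at day 8. The difference between the days in the effect of the label did not pass either (log2 difference -6.01, p 0.0102, adjusted p 0.677 by edgeR).

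**Figure D3:**
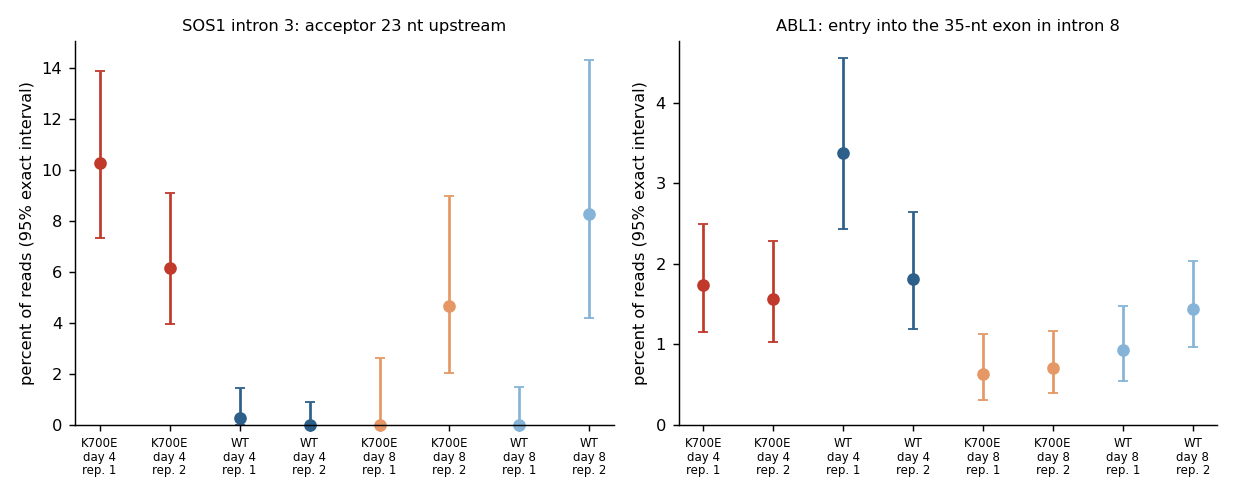
Percent of reads (y axis) at the SOS1 acceptor 23 nt upstream of exon 4 (left) and entering the 35-nt exon of ABL1 intron 8 (right), by library (x axis); points are shares and bars exact 95% intervals. SOS1 stands at 10.3% and 6.17% in K700E and 0.265% and 0% in WT at day 4, and at 0% in replicate 1 of both labels at day 8.

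Other acceptors 10 to 30 nt upstream of a main intron's end were seldom read in the members. BCR had 4 of them with 54 reads in all, ABL1 3 with 14 reads, CRKL 1 with 14 reads, and STAT5A none. BCR intron 1 had an acceptor 21 nt upstream with 27 reads in all. It had 0 and 0 reads in the K700E libraries and 0 and 3 in the WT libraries at day 4, and 0 and 2 in the libraries labelled K700E and 22 and 0 in those labelled WT at day 8. BCR intron 7 had an acceptor 18 nt upstream with 4 and 0 reads in the K700E libraries and 0 and 0 in the WT libraries at day 4. At day 8 it had 1 and 4 reads in the libraries labelled K700E and 0 and 15 in those labelled WT. For CRKL intron 1 the acceptor 23 nt upstream had 11 of its 14 reads in WT day 8 replicate 2. None of these acceptors held 5 reads in 2 libraries at day 4.

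The remaining alternative junctions of the members did not pass at either day. No acceptor or donor of any gene passed at day 8 (0% called; at an unadjusted p under 0.05, 2.81% of acceptor and 2.82% of donor junctions by edgeR). BCR joined exon 20 from a donor 82 nt downstream of the main one in 4.48% and 8.26% of reads in K700E and in 3.73% and 2.96% in WT at day 4 (adjusted p 1.00 by edgeR). STAT5A skipped exon 5 in 25% and 21.9% of reads from exon 4 in K700E, against 22.9% and 19.6% in WT. STAT5B had an unannotated donor upstream of its main first donor, inside the span of STAT5A on the other strand, used in 17.3% and 21.0% of reads into exon 2 in K700E and in 18.5% and 10.8% in WT. SOS1 skipped its exon 22 in 23.7% and 17.7% of reads into exon 23 in K700E, against 19.5% and 17.5% in WT. Each of the last 3 also had an adjusted p of 1.00 by edgeR.

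GAB2 used alternative donors into exon 2. An annotated one was used in 9.49% and 16.3% of reads into exon 2 in K700E and in 10.9% and 14.3% in WT at day 4, and an unannotated one in 4.24% and 4.88% of reads in K700E and in 2.97% and 14.5% in WT. PIM1 had an alternative donor into its exon 5, at 2.5% and 1.61% in K700E and 2.58% and 3.97% in WT, and GRB2 an acceptor 3 nt downstream of that of exon 6, at 0.418% and 0.926% in K700E and 0.496% and 0.364% in WT. In CRKL the junction read most outside the main path was an unannotated 1940-nt intron inside the 3′ untranslated part of the last exon (chr22:20951266-20953205, plus strand). It had 378 and 184 reads in K700E and 320 and 412 in WT at day 4, and 99 and 193 in the libraries labelled K700E and 121 and 179 in those labelled WT at day 8. Unannotated junctions made up 3.23% of the reads of CRKL, the highest share of the 9 genes; the lowest was 0.483% in GRB2.

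The use of annotated introns within each gene did not pass for any member. At day 4 the test called 0.0861% of 150966 introns (2.01% at an unadjusted p under 0.05), none of them in the 9 genes. At day 8 it called 0% (1.28% of introns at an unadjusted p under 0.05 by edgeR; 16 introns by limma, of them 1 in STAT5B).

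No member passed the test of level at day 4, where 0.543% of 13991 genes were called by the edgeR quasi-likelihood test (adjusted p below 0.05). Of the 9 members, 2 had an unadjusted p under 0.05 (CRKL and STAT5B), against 21.4% of all genes tested. The K700E and WT libraries did not overlap for 5 of the 9 members, against 54.7% of genes. In bulk samples fewer cells of a type and less RNA per cell cannot be told apart.

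CRKL, the adaptor that is a direct substrate of the fusion kinase, came closest. It stood at 118 and 115 CPM in the K700E libraries, against 191 and 185 in the WT libraries. Both K700E values lay below both WT values and each pair was tight. The log2 change was -0.69 (SE 0.12, p 0.00146, adjusted p 0.0815 by edgeR). By DESeq2 the adjusted p was 0.000761, in a fit that called 725 genes higher and 783 lower of 14369 tested. By edgeR without a filter on low counts it was 0.00556, where 733 were called higher and 817 lower of 19722. With all 8 libraries in 1 model it was 0.435 by edgeR. On leaving out a library the log2 change of CRKL ranged from -0.72 to -0.67. At day 8 CRKL stood at 117 and 137 CPM in the libraries labelled K700E and 137 and 121 in those labelled WT, a log2 change of -0.03. The change of the effect between the days did not pass (log2 difference 0.67, p 0.0174, adjusted p 0.501 by edgeR).

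The fusion partners differed little by genotype. BCR stood at 224 and 276 CPM in the K700E libraries and 207 and 212 in the WT libraries at day 4 (log2 change 0.25, SE 0.15, adjusted p 0.376 by edgeR). ABL1 stood at 184 and 226 in K700E and 192 and 190.5 in WT (log2 change 0.10, SE 0.15, adjusted p 0.728). The spread between the K700E replicates was as wide as the difference in both genes. At day 8 BCR stood at 375 and 386 in the libraries labelled K700E and 282 and 389 in those labelled WT, and ABL1 at 291 and 276 against 222 and 271.

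Among the adaptors, GRB2, the SH2 and SH3 domain protein that links the kinase to SOS1, had the smallest difference. It stood at 109.8 and 119.8 CPM in K700E and 118 and 113 in WT at day 4 (log2 change -0.01, SE 0.12, adjusted p 0.969 by edgeR), a sign that turns with the scaling. GAB2, the docking protein, stood at 94.5 and 62.7 in K700E and 116 and 107 in WT (log2 change -0.50, SE 0.22, adjusted p 0.258). Both K700E values were lower, but the K700E replicates lay further apart than the nearest libraries of the groups. By edgeR the log2 change was -0.83 without K700E replicate 1 and -0.24 without K700E replicate 2. SOS1 stood at 116 and 122 in K700E and 134 and 154 in WT (log2 change -0.27, SE 0.13, adjusted p 0.302).

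STAT5B, one of the transcription factors, stood at 294 and 301 CPM in K700E and 242 and 239.9 in WT at day 4. The groups were apart and tight, with a log2 change of 0.30 (SE 0.11, p 0.0408, adjusted p 0.215 by edgeR). STAT5A stood at 129.7 and 174 in K700E and 145 and 155 in WT, with the K700E libraries on either side of the WT pair (log2 change 0.02, SE 0.18, adjusted p 0.960). The 2 genes are neighbours and close paralogs on chromosome 17; 6.09% of STAT5A and 4.66% of STAT5B junction reads were multi-mapped and left out, so their levels are uncertain to that extent. PIM1, the STAT5 target, stood at 502 and 499 in K700E and 569 and 391.6 in WT (log2 change 0.06, SE 0.20, adjusted p 0.896).

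At day 8 no gene passed the test of level by edgeR (0% called, 428 genes or 3.05% at an unadjusted p under 0.05; 19 higher and 8 lower by DESeq2, none of them a member). For the 9 members the adjusted p was 1.00 each. GAB2 stood at 57.1 and 53.3 CPM in the libraries labelled K700E and 88.8 and 63.4 in those labelled WT (log2 change -0.46, SE 0.25). STAT5B stood at 177 and 190.4 against 162 and 167 (log2 change 0.16, SE 0.19), and STAT5A at 215 and 195 against 163 and 174 (log2 change 0.29, SE 0.20). PIM1 stood at 288 and 318 in the libraries labelled K700E and 426 and 319 in those labelled WT, SOS1 at 61.9 and 61.7 against 80.1 and 54.9, and GRB2 at 119 and 126 against 147 and 114. The groups did not overlap for 5 of the 9 members, against 32.2% of genes. GAB2 was lower and STAT5B higher with the K700E label at both days, without passing at either.

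**Figure D4:**
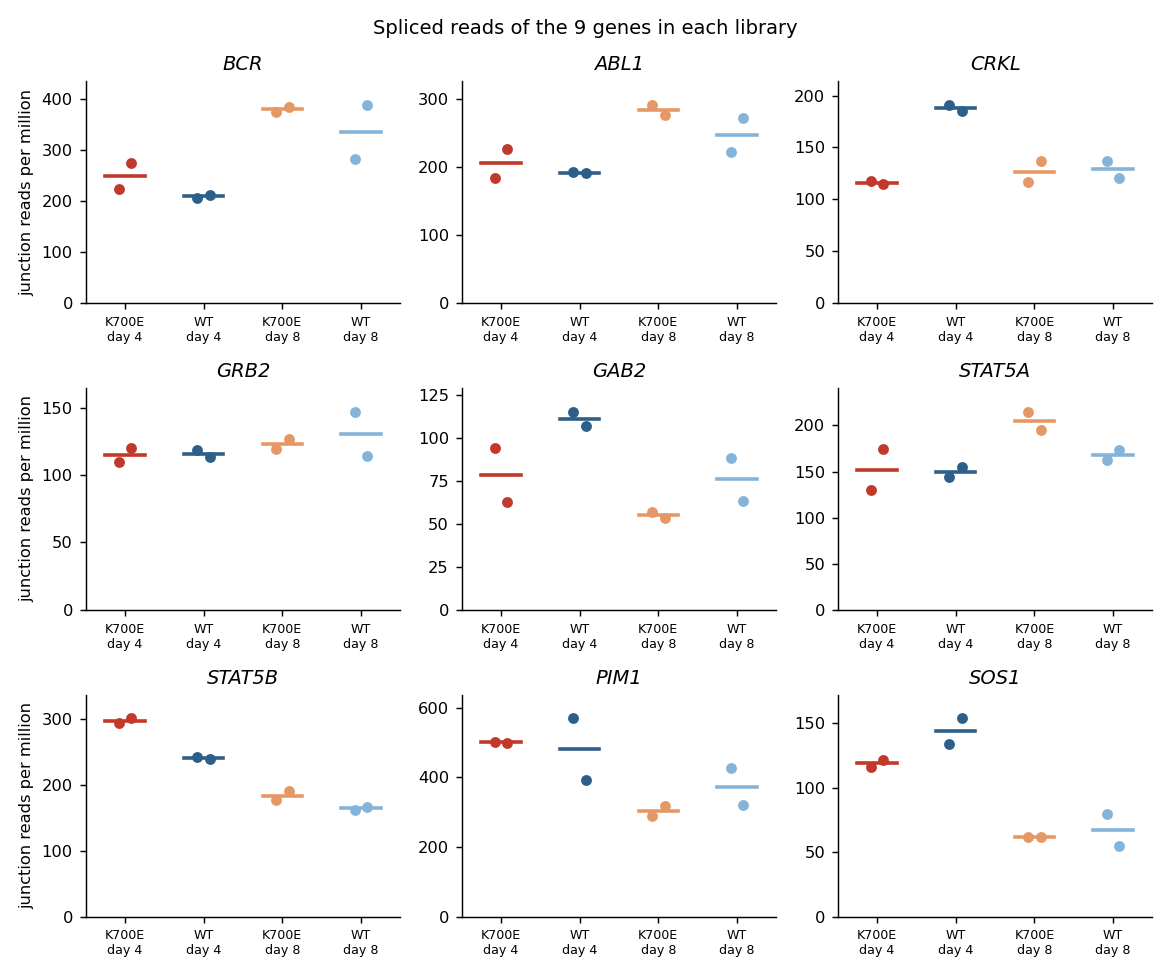
Unique junction reads in CPM (y axis) of the 9 genes in each group (x axis); points are libraries and bars group means. CRKL at day 4 shows the widest gap between tight pairs, 118 and 115 in K700E and 191 and 185 in WT, and SOS1 is at 54.9 to 80.1 at day 8 and 116 to 154 at day 4.

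Between the days more members differed than between the genotypes. This contrast was added after the data were seen, over both genotype labels in the 8-library model, and day and alignment run cannot be told apart in it. It called 6 of 9 members, against 35.9% of 14951 genes. BCR rose by 0.64 (SE 0.14, adjusted p 0.0112) and ABL1 by 0.42 (SE 0.12, adjusted p 0.0343) on the log2 scale at day 8 relative to day 4, by edgeR. SOS1 fell by 1.02 (SE 0.15, adjusted p 0.00241), with 54.9 to 80.1 CPM at day 8 and 116 to 154 at day 4. STAT5B fell by 0.62 (adjusted p 0.00331), PIM1 by 0.54 (adjusted p 0.0342) and GAB2 by 0.53 (adjusted p 0.0498). STAT5A, GRB2 and CRKL did not pass (log2 changes 0.30, 0.14 and -0.21). Higher calls numbered 2 of 9 members, against 18% of genes, and lower calls 4 of 9, against 17.9%.

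The libraries of the days did not overlap for 3 of the 9 members (BCR, STAT5B and SOS1), against 35.7% of genes. Without WT replicate 2 and K700E replicate 1 of day 8, the libraries that went against their labels, 3 members were called, against 41.0% of 15665 genes. Leaving out 1 library in turn gave 2 to 6 members, against 18.5% to 37.8% of genes. The fit called 2 members and 21.6% of genes without WT day 4 replicate 1, and 3 members and 18.5% of genes without WT day 4 replicate 2. Among the members, ABL1, GAB2 and PIM1 lost the call in 6 of these 8 fits each, BCR without either WT day 4 library (adjusted p 0.0517 and 0.0521), and STAT5B and SOS1 kept it in all. The 5′ to 3′ balance also moved with the day: over 10 introns or more, the first 3 introns stood at a median of 0.824 to 0.845 of the last 3 at day 8 and at 0.733 to 0.752 at day 4. In STAT5A it was 0.330 to 0.441 at day 8 and 0.108 to 0.147 at day 4, in STAT5B 0.581 to 0.695 at day 8 and 0.656 to 0.786 at day 4. Its part in the day differences was not tested.

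**Figure D5:**
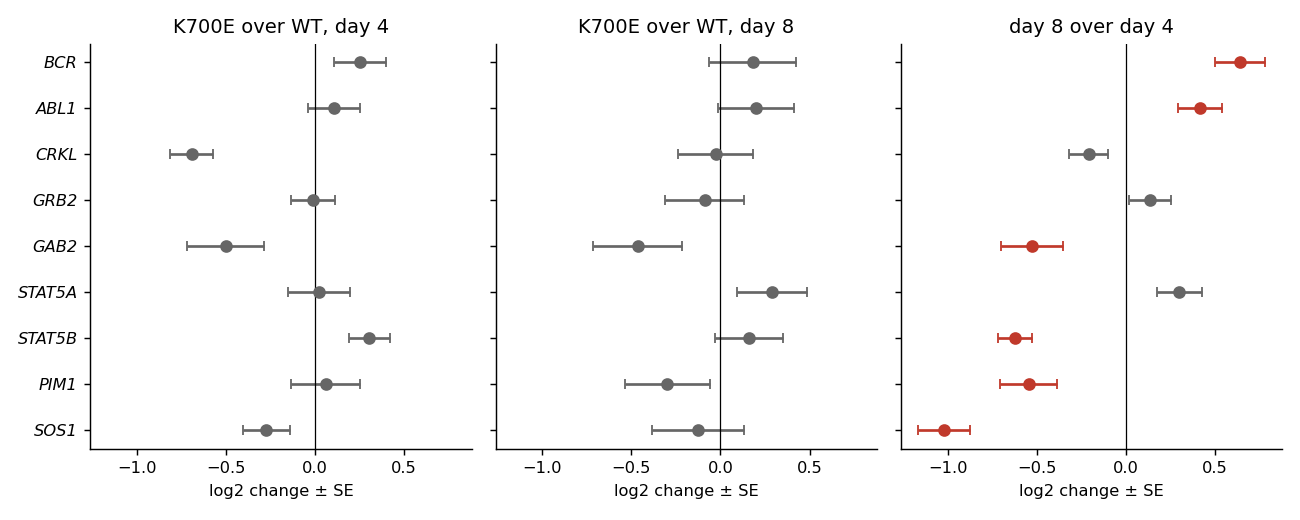
Log2 change (x axis, points) with its standard error (bars) for the 9 genes (y axis), K700E over WT at day 4 (left) and day 8 (middle) and day 8 over day 4 (right); red marks an adjusted p under 0.05. No gene is red in either genotype comparison, and 6 are red between the days.

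Per intron of the main transcript, PIM1 was read most, at a mean of 82.0 CPM over the 8 libraries (57.1 to 113), followed by CRKL at 69.9 (57.2 to 95.4), whose ranges overlap. ABL1 at 23.1 (18.4 to 29.01) and GRB2 at 22.8 (21.1 to 26.6) came next and overlapped, then BCR at 13.3 (9.37 to 17.6) and STAT5B at 12.3 (9.01 to 16.7), also overlapping. STAT5A at 8.80 (6.75 to 11.2) and GAB2 at 8.75 (5.77 to 12.7) overlapped, and SOS1 was lowest at 4.23 (2.37 to 6.64). These levels set fused and normal BCR and ABL1 together.

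The wider pathway gave no call by genotype. None of the 7 lists (adaptors, SRC family kinases and phosphatases, RAS-ERK, ERK outputs, PI3K-AKT, JAK-STAT and STAT5 outputs, apoptosis and cycle) had a gene that passed at either day by edgeR. Of all genes tested at day 4, 10.3% were higher and 11.1% lower in K700E at an unadjusted p under 0.05. In the RAS-ERK list 5 of 16 genes were lower and none higher in K700E at an unadjusted p under 0.05 at day 4, and the median log2 change was -0.15, against 0.00090 for all genes tested. BRAF, a kinase activated by RAS, averaged 67.5 ± 22.2 CPM in K700E and 111 ± 6.12 CPM in WT (SD, n = 2 each; log2 change -0.72, adjusted p 0.182 by edgeR). Among SRC kinases and phosphatases 5 of 14 tested were higher and none lower at that level, against 10.3% of all genes higher and 11.1% lower, with a median of 0.21. The phosphatase gene PTPN6 stood at 11.1 and 50.8 CPM in K700E and 5.63 and 6.02 in WT, with the K700E replicates far apart.

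In the adaptor list the median was -0.08, with 4 of 18 genes higher and 2 lower at an unadjusted p under 0.05, against 10.3% of all genes higher and 11.1% lower. INPP5D, the lipid phosphatase SHIP1, stood at 58.7 and 102 CPM in K700E and 23.8 and 29.03 in WT at day 4 (log2 change 1.61, adjusted p 0.0860 by edgeR), and RIN1 at 1.118 and 1.17 in K700E and 0.0567 and 0 in WT (adjusted p 0.0945). In the PI3K-AKT list 4 of 18 were higher and 4 lower at that level, with a median of -0.10. FOXO3, a transcription factor that AKT inhibits, averaged 4.39 ± 1.28 in K700E and 8.87 ± 0.15 in WT, and RPTOR, a subunit of mTORC1, 80.0 ± 3.32 in K700E and 47.6 ± 7.92 in WT (SD, n = 2 each).

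The JAK-STAT and STAT5 list had 3 of 19 higher and 3 lower at an unadjusted p under 0.05 at day 4, against 10.3% of all genes higher and 11.1% lower, with a median of 0.13; PIM3 averaged 4.39 ± 1.25 in K700E and 7.97 ± 0.06 in WT, and BCL6 stood at 21.96 and 3.65 in K700E and 27.1 and 17.8 in WT. ERK outputs had 1 of 13 higher and none lower at that level (median 0.09), with FOS at 6.98 and 3.503 in K700E and 11.1 and 8.87 in WT and SPRY4 at 0.786 and 0.694 in K700E and 0.227 and 0.566 in WT. Apoptosis and cycle genes had 1 of 16 higher and 3 lower, on the same background (median 0.0085); BID, which promotes apoptosis, averaged 46.4 ± 14.7 in K700E and 28.6 ± 0.67 in WT, and PMAIP1 4.96 ± 1.99 in K700E and 8.03 ± 0.45 in WT (SD, n = 2 each). At day 8 the medians of the 7 lists lay between -0.30 and 0.17, against 0.04 for all genes tested.

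Between the days, day 8 over day 4, the lists differed in their calls. This is the contrast added after the data were seen, in which day and alignment run cannot be told apart. How the list counts move on leaving out a library is not given here. In JAK-STAT and STAT5 outputs 13 of 20 tested were called higher and 2 lower, with a median log2 change of 0.77. ERK outputs had 5 of 13 higher and none lower, with a median of 0.56, and adaptors 6 of 18 higher and 3 lower. SRC kinases and phosphatases had 1 of 14 higher and 4 lower, RAS-ERK 5 and 4 of 16, PI3K-AKT 4 and 3 of 18, and apoptosis and cycle 6 and 4 of 16. These counts stand against 18% of all genes called higher and 17.9% lower.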

How the data were processed

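The members and the gene lists were chosen with earlier results of these data known. The deposited files are splice junction tables with 1 line per intron and the count of uniquely mapped reads across it, made by the authors with STAR 2.7.0e on hg38, per the file headers, and with cutadapt, per the submitters' processing notes. Alignment allowed up to 10 places and used GENCODE annotation, per the file headers. A junction was given to a gene by GENCODE release 29; 4.17% of unique reads lay in introns of several genes and were left out. Gene sums were tested with edgeR 4.0.16 (quasi-likelihood, TMM factors from 8 libraries, R 4.3.3) on the 4 libraries of a day, and intron, acceptor and donor use with its diffSpliceDGE, with Benjamini-Hochberg adjustment over all features. Junctions needed 5 unique reads in 2 libraries and a site mean of 20 reads. An acceptor or donor was called at an adjusted p under 0.05 and a change of 5 percentage points. limma 3.58.1 and DESeq2 1.42.0 served as alternatives, beside other scaling, filters, a replicate block, leaving out each library, and all 8 libraries in 1 model. Ratios along BCR and ABL1 were compared with exact permutation tests, two-sided. The scripts were tested on simulated data. The named alternatives were, per gene, the most used and the one with the largest change at day 4, and per list the largest change in each direction; some of these genes are not reported here. Counts of PCR copies without molecular identifiers are not independent molecules, and intervals cover counting error only.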

Additional observations from a re-analysis of the deposited data

How the results depend on the processing

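With 2 libraries a group, day 8 libraries that went against their labels, and run confounded with day, small differences cannot be shown. Of the members, the count changed in level at day 4 was 0, but 1 by DESeq2 and 1 without the low count filter (CRKL both times). Of all genes, DESeq2 called 725 higher and 783 lower of 14369 tested. Without the filter 733 were called higher and 817 lower of 19722. The member count also moved on leaving out either K700E library. The count with a changed acceptor or donor was 1, but 0 by limma, 0 with 8 libraries in 1 model, and 0 to 1 on leaving out a library. Pathway genes called at day 4 numbered 0, but 15 by DESeq2, 14 without the filter, 1 with the replicate block and 0 to 27 on leaving out a library. The 7 lists held 13 to 19 tested genes each at day 4 in the main fit. The fit with the most pathway calls, without K700E replicate 1, also called the most genes of all the day 4 fits. The pathway counts thus largely rose with the calls over all genes, and a change particular to the pathway was not tested. The count of members with a changed intron at day 8 was 0, but 1 by limma. Members called between the days numbered 6, with 2 to 6 on leaving out a library and 3 without both doubted day 8 libraries.

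On leaving out a library, the ABL1 log2 ratio difference at day 8 ranged from -0.16 to 0.93 and that of BCR from -0.15 to 0.14; with the median over introns the BCR difference was 0.17. Levels whose sign turned had small log2 changes in the main fit, the largest 0.18 for BCR and -0.13 for SOS1, both at day 8. For GRB2 at day 4 the log2 change was 0.014 with DESeq2 size factors, 0.0035 by DESeq2 and 0.0024 with multi-mapped reads. It was 0.0032 with TMM factors within the day, and -0.077 to 0.049 on leaving out a library. That range was -0.053 to 0.24 for ABL1, -0.21 to 0.22 for STAT5A and -0.19 to 0.35 for PIM1 at day 4. At day 8 it was -0.033 to 0.43 for BCR, -0.14 to 0.082 for CRKL, -0.26 to 0.10 for GRB2 and -0.37 to 0.17 for SOS1. The SOS1 acceptor at day 8 gave 0.40 by limma and -5.47 to 5.37 on leaving out a library, and ABL1 exon 1a use at day 8 gave 0.012 with the replicate block and -0.38 to 0.46. The cause was not tested.

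Over all genes at day 4, 32 were called higher and 44 lower, against 725 and 783 by DESeq2, 733 and 817 without the filter, 0 with 8 libraries in 1 model and up to 1077 and 1246 without K700E replicate 1. Same-numbered libraries deviated together only weakly (correlation 0.174 at day 4 and 0.281 at day 8 over 11426 genes, 2 pairs each), so the numbers are not taken as pairs. With the replicate block, 62 genes were called higher and 82 lower at day 4, no member passed, and the SOS1 acceptor had an adjusted p of 0.0275 by edgeR.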

Other observations

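Over the 8 libraries, the genes whose normalised levels ran most like BCR were EEF2KMT, KIAA0930 and SURF6 (Pearson r of log2 levels 0.996, 0.996 and 0.992 among 8037 genes). For ABL1 they were SRM, ZNF593 and RABL6 (0.990, 0.989 and 0.987). BCR and ABL1 ran together at 0.977. The 8 points share the split between the days and between the alignment runs, so these values are a description only. Genes within 1 Mb of BCR and ABL1 on either side had no call at day 4 or day 8 by edgeR: 6 were tested upstream and 18 downstream of BCR at day 4, and 11 upstream and 10 downstream of ABL1. At an unadjusted p under 0.05 at day 4 there were 2 higher and 2 lower downstream of BCR, 1 higher upstream of ABL1, and 1 higher and 1 lower downstream of it, against 10.3% of all 13991 genes tested higher and 11.1% lower.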
